A study of Mus musculus with 10 samples.

Results

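The microRNA genes Mir294, Mir295, Mir302a, Mir302d, Mir367, Mir200a, Mir200b, Mir429, Mir200c and Mir141 lie in 4 clusters of the mouse genome. They are 10 of 1228 microRNA genes with a position in the RefSeq table used here (GRCm38.p6, the mm10 build of the files). All peaks from 20 kb before to 20 kb after each listed gene were taken from each library, and the windows of genes in the same cluster were joined. When the overlapping peaks of the 10 libraries were merged, 28 of the 208851 regions of the series overlapped these windows: 9 at the Mir290 cluster, 5 at Mir302/Mir367, 6 at Mir200a/Mir200b/Mir429 and 8 at Mir200c/Mir141.

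Open chromatin was measured by ATAC-seq, in which a transposase inserts sequencing adapters into accessible DNA, with 2 libraries at each of 5 stages from fibroblast to pluripotent cell. All cells are of strain C57BL/6 x 129. Embryonic fibroblasts (MEF) were from mice with a doxycycline-inducible Oct4, Klf4, Sox2 and Myc cassette at Col1a1 and the activator M2rtTA at Rosa26, and grew in MEF medium without doxycycline. The same cells were taken after 3, 6 and 9 days (DAY3, DAY6, DAY9) in embryonic stem cell medium with 1 µg/ml doxycycline and 50 µg/ml ascorbic acid. Cells of DAY6 and DAY9 were sorted for the surface antigen SSEA1, a marker of cells that advance toward pluripotency, and the other cells were not sorted. The embryonic stem cells (ESC) were of 1 line, V6.5, without the cassette, on irradiated feeder cells in ESC medium with LIF. Sorting therefore cannot be told apart from the DAY6 and DAY9 stages, nor the line and the missing cassette from ESC. The same holds for the feeder cells, described for ESC alone, and for the medium, doxycycline and ascorbic acid that changed between MEF and DAY3. The series calls its replicates biological without saying whether the 2 libraries of a stage came from separate cultures, so the spread between them may be technical.

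MicroRNAs are short RNAs that pair with messenger RNAs mainly through their seed, bases 2 to 8, and lower the output of those messages. The Mir290 cluster and the Mir302/Mir367 cluster are known as microRNAs of pluripotent and early embryonic cells, where they are linked to a fast cell cycle. The Mir200 family is known as a marker of epithelial cells. It targets the repressors Zeb1 and Zeb2, which in turn repress the Mir200 genes, and fibroblasts pass from a mesenchymal to an epithelial state early in reprogramming.

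The mature 3p sequences are shown first because they split the 10 genes in another way than their positions do. RefSeq (GRCm38.p6) gave one for 9 of the 10 genes, and Mir302a is named only. Capitals mark the seed.
Mir294: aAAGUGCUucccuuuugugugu
Mir295: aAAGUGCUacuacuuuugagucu
Mir302d: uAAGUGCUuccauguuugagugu
Mir367: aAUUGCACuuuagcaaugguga
Mir200b: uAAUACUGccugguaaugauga
Mir429: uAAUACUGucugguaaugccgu
Mir200c: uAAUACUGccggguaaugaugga
Mir200a: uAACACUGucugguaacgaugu
Mir141: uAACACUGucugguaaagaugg
The 9 sequences hold 4 seeds. Mir294, Mir295 and Mir302d share AAGUGCU although they lie on chromosomes 7 and 3, and 5 of 1679 mature mouse microRNAs in the table carry that seed. Mir294 and Mir302d match at 13 of 22 aligned positions and at every seed base. Mir367, next to Mir302d in the genome, has another seed, which 6 mature microRNAs carry. Both Mir200 loci hold the same pair of seeds: Mir200b, Mir429 and Mir200c share AAUACUG, and Mir200a and Mir141 share AACACUG. Mir200b and Mir200a differ in the seed by U4C, counted from 1 at the 5′ end, and so do Mir200c and Mir141. Each of those pairs matches at 18 of 22 positions.

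Among the regions described below, 3 cover the annotated start of a long non-coding RNA that holds or neighbours a cluster. Their 300-base promoters (250 before and 50 after the start, RefSeq, GRCm38.p6, written along the gene's strand) are printed because each lies whole inside a region whose peaks differ by stage. Gm51018 (chr3:127544839-127545138, plus strand) is the RNA at the Mir302/Mir367 genes. Gm13648 (chr4:156059753-156060052, minus strand) spans Mir200b, Mir200a and Mir429. Gm52714 (chr4:156064024-156064323, plus strand) starts farther upstream of Mir200b and runs away from it. Capitals mark matches to the motifs searched.
Gm51018: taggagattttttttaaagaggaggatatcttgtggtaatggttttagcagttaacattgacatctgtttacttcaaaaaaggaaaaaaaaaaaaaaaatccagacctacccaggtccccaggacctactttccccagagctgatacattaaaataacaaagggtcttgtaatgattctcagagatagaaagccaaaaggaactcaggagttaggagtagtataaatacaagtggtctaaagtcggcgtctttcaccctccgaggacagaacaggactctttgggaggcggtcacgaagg
Gm13648: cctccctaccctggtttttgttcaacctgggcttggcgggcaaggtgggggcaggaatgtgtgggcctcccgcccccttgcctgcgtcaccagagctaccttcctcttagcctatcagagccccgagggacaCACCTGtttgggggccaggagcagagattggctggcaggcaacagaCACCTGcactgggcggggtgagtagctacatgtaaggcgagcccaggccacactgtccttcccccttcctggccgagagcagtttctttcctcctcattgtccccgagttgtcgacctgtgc
Gm52714: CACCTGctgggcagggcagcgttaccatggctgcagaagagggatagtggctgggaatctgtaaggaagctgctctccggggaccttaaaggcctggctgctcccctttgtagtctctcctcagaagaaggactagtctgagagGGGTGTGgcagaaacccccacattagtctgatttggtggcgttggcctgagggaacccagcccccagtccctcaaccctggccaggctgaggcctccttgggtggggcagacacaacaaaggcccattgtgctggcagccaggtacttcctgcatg
The motifs searched on both strands were CAGGTG, the E-box form that Zeb and Snai repressors are known to bind, the octamer ATGCAAAT of Oct4, and GGGCGTG and GGGTGTG, which Klf factors bind. None of the 4 motifs contains another. CAGGTG matched the Gm13648 promoter 2 times, at -118 and -72 from the start, both read as CACCTG on the printed strand. Gm52714 held 1 such match, at -250, and 1 GGGTGTG, at -106. Gm51018 held none of the 4. Of all 32851 promoters of the same length, 20.2% held CAGGTG, 1.74% ATGCAAAT, 8.44% GGGCGTG and 7.95% GGGTGTG. The Gm13648 and Gm52714 promoters are 61.7% and 59.3% G or C, above the median of 52.7% over all promoters, and Gm51018 is 40.3%. A match is a description of letters and not a measured binding site.

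The lists held 45497 to 88980 peaks, fewest at DAY3 and most in ESC, and the background pileup recovered from the folds and p-values, a measure of depth, ran from 2.327 in DAY6 replicate 2 to 8.322 in MEF replicate 2. The spread between the 2 DAY3 libraries was close to counting noise (1.33 times its variance), and so was that of the 2 DAY9 libraries (1.45 times), so each pair was averaged and counted as 1 sample in tests. Pairs at the other stages differed by 3.61 to 8.11 times that variance. Marker genes were scored for a peak within 2.5 kb of the gene start or, where the reference gives no strand for a gene (Dppa5a, Thy1, Cdh1, Pecam1 and Cdh5), of either gene end. Of 6 pluripotency genes, 6 had a peak in each ESC library, against 2 in MEF replicate 1 and 4 in MEF replicate 2, where Pou5f1 was the one shared by the MEF pair. Of 6 fibroblast genes, 6 and 5 had a peak in the MEF libraries and 4 and 3 in ESC. Of the 5 pluripotency genes scored at their start, 1 had a peak in both ESC and neither MEF library, beside 6.16% of 27025 gene starts. Of the 5 fibroblast genes scored at their start, 1 had a peak in both MEF and neither ESC library, beside 2.82%. The marker counts per library have no matching share over all genes and are description only. Among genes of blood and endothelium, Ptprc, the pan-leukocyte antigen, had no peak in any library, Cd68 had peaks in both DAY3, DAY9 and ESC libraries, Pecam1 in 1 DAY9 and 1 ESC library, and Cdh5 in all 10. In a bulk assay, fewer open cells and less opening per cell cannot be told apart, and a region without a peak was not shown to be closed.

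Across the 4 windows, the peak number was 5 and 4 in the MEF libraries, 8 and 8 at DAY3, 16 and 14 at DAY6, 18 and 19 at DAY9, and 20 and 20 in ESC. These raw counts do not overlap between stages, and their largest step was 7 peaks, from DAY3 to DAY6. Per 10000 peaks of a library's list this was 0.672 and 0.622 in MEF, 1.75 and 1.76 at DAY3, 2.46 and 2.37 at DAY6, 2.31 and 2.43 at DAY9, and 2.31 and 2.25 in ESC. On that scale the largest step was from MEF to DAY3, at 1.11, against 0.662 from DAY3 to DAY6, and the DAY3 lists are the shortest. The MEF libraries were lowest and DAY6, DAY9 and ESC lay within 2.25 to 2.46. With every list cut to its 45497 highest-scoring peaks, MEF held 5 and 3, DAY3 8 and 8, DAY6 14 and 12, DAY9 16 and 16, and ESC 12 and 13, so DAY9 rather than ESC then had most.

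**Figure D1:**
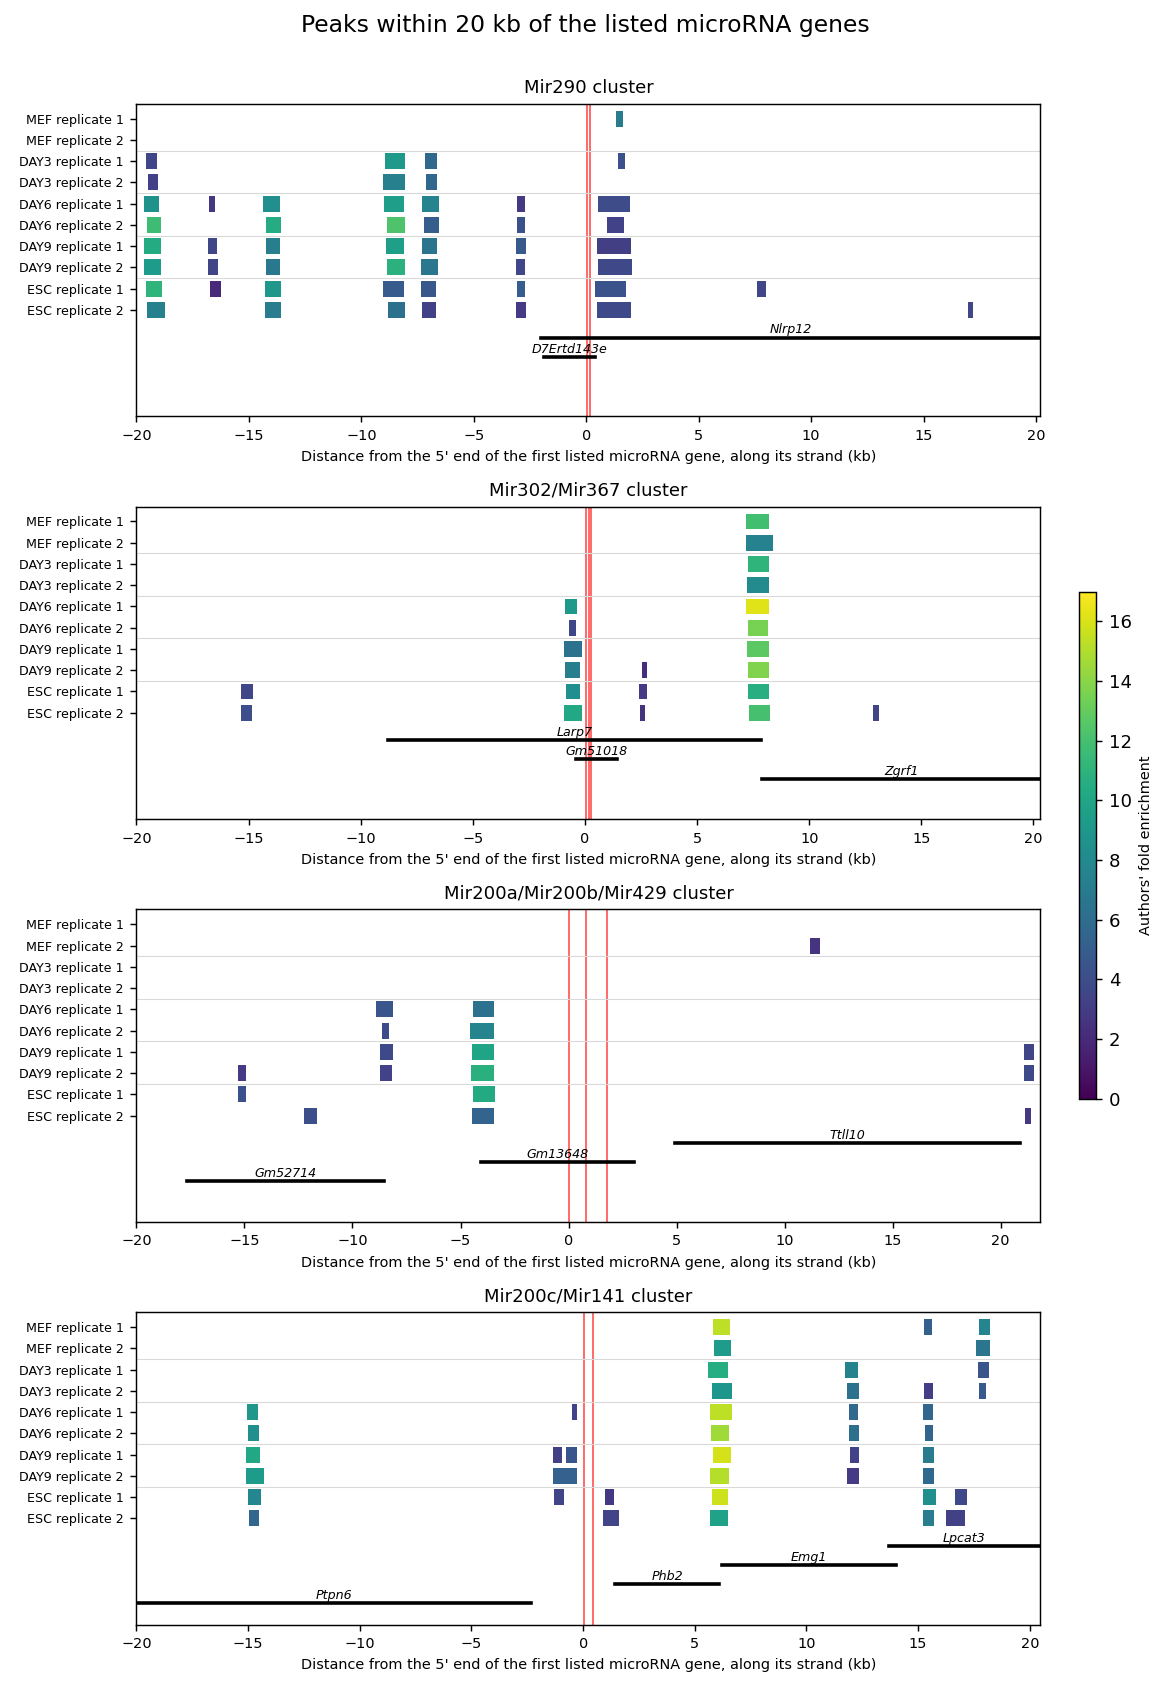
Peaks of each library around the 4 clusters. The x axis is the distance in kb from the 5′ end of the first listed microRNA gene of the cluster along its strand. Each row is 1 library, and bar colour is the authors' fold enrichment. Red lines are the listed microRNA genes and black bars are other genes. The Mir290 panel is nearly empty in MEF, fills upstream of the microRNAs from DAY3 and DAY6, and keeps the same positions in ESC.

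Of the 28 regions, 12 were gained in ESC against MEF, meaning a peak in both ESC libraries and in neither MEF library. That is 42.86%, beside 15.9% of all 208851 regions. In lists of equal length 8 were gained, and 8 in the top 50% of each list, settings for which no share over all regions was counted. In the full lists only 1 (3.57%) was lost, beside 11.1% of all regions, and 2 were transient (peaks in both libraries of an intermediate stage and in no MEF or ESC library), beside 9.61%. Both MEF libraries had a peak at 3 regions (10.71%, against 22.1% of all), both DAY3 libraries at 7 (25.0% against 16.9%), both DAY6 libraries at 14 (50.0% against 21.7%), both DAY9 libraries at 17 (60.71% against 30.8%) and both ESC libraries at 16 (57.14% against 28.2%). The windows thus stood below the series in MEF and above it at each later stage, as counts with no test. With 2 libraries against 2, no single region can reach p = 0.05 in an exact test.

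**Figure D2:**
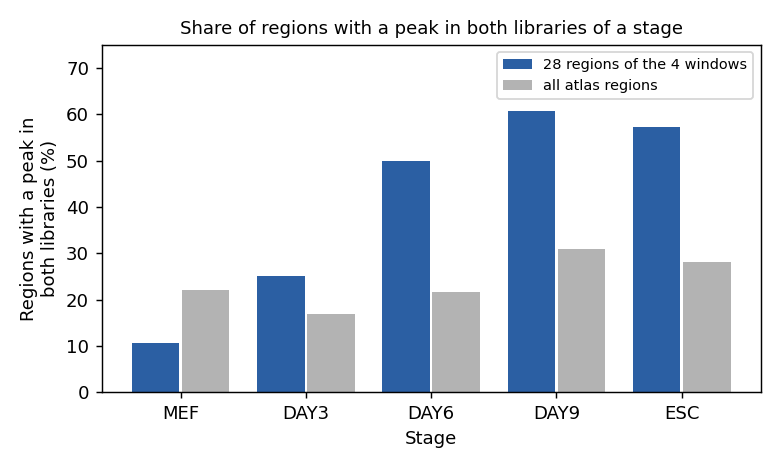
Share of regions with a peak in both libraries of a stage (y axis, percent) for the 28 regions of the 4 windows and for all 208851 regions, by stage (x axis). The windows are at 10.71% in MEF and 60.71% at DAY9, while all regions are at 22.1% and 30.8%.

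The gains fell at different steps. Of the 12 gained regions, 3 reached a peak in both libraries by DAY3, all at the Mir290 cluster, beside 8.69% of all gained regions. A further 5 did so at DAY6, with 2 at Mir290 and 1 at each other cluster (14.7% of all gained regions), and none at DAY9 (15.7%). The other 4 did so in ESC, 2 at Mir302/Mir367 and 2 at Mir200c/Mir141. None of these 4 was in both libraries of any stage in lists of equal length or in the top 50% of each list. Over the series, ESC was the stage for all remaining gained regions, more than at the earlier stages together. Step by step, DAY3 against MEF gave 4 gains (5.43% of all regions), DAY6 against DAY3 gave 6 (5.29%), DAY9 against DAY6 gave 1 (5.39%) and ESC against DAY9 gave 3 (9.1%). Losses were 0 of 28 at the first step (10.4% of all), 1 at the second, at Mir200c/Mir141 (1.5%), 0 at the third (0.956%), and 2 at the last, at Mir200b and Mir200c (9.24%).

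At the Mir290 cluster (chr7, Mir294 at chr7:3220641-3220724 and Mir295 at chr7:3220773-3220841, plus strand), the window held 1 and 0 peaks in MEF, 4 and 3 at DAY3, 7 and 6 at DAY6, 7 and 7 at DAY9, and 8 and 7 in ESC. Both microRNA genes lie inside the long non-coding RNA D7Ertd143e, their annotated host, and inside the gene body of Nlrp12. MEF was below every other library, DAY3 was intermediate, and DAY6, DAY9 and ESC overlapped. The mean was 0.5 ± 0.707 in MEF (SD, n = 2), 3.5 at DAY3 (n = 1), 6.5 ± 0.707 at DAY6 (n = 2), 7 at DAY9 (n = 1) and 7.5 ± 0.707 in ESC (n = 2). Stage held 97.7% of the sum of squares over the 8 samples. In an exact permutation test over all 420 arrangements this gave p = 0.0286, or 0.0571 after Benjamini-Hochberg adjustment over the 4 clusters compared and 0.308 over the windows of all 1152 microRNA genes with a peak. In lists of equal length the ESC minus MEF difference was 5.5 peaks in place of 7, with an exact permutation p = 0.0286 adjusted over the 4 clusters.

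The peaks upstream of Mir294 recurred at the same places from stage to stage. The region 8.0 kb upstream of Mir294 (chr7:3211597-3212600) had no peak in MEF, folds of 9.17 and 7.36 at DAY3, 9.46 and 12.3 at DAY6, 9.54 and 10.9 at DAY9, and 4.81 and 6.18 in ESC. Each intermediate library was above both ESC libraries, so this region was listed at DAY3 with a higher fold than in pluripotent cells. A fold is the authors' ratio of a peak to its local background (the highest peak where several fall in a region), and since depth differed between libraries it is compared between lists only as a description. By rank in its own list, the score of that region was at percentile 93.0 and 87.6 at DAY3 and 68.7 and 88.6 in ESC.

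The region 6.5 kb upstream (chr7:3213282-3214095) behaved alike, with no MEF peak and folds of 5.66 and 5.53 at DAY3, 7.67 and 5.04 at DAY6, 6.56 and 6.71 at DAY9, and 4.61 and 3.21 in ESC. By fold, all 6 intermediate libraries exceeded both ESC libraries there too. By rank they did not, with the score at percentile 69.6 in DAY6 replicate 2 and at 71.0 and 61.0 in ESC. The region 18.7 kb upstream (chr7:3200966-3201895) was the third to appear at DAY3. Its folds were 3.65 and 3.19 at DAY3, 8.62 and 11.7 at DAY6, 10.4 and 9.26 at DAY9, and 11.0 and 7.37 in ESC. Unlike the others, it was lowest at DAY3, and its DAY6, DAY9 and ESC values overlapped.

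Both other gained regions of the cluster were first listed in both libraries at DAY6. The region 13.6 kb upstream (chr7:3206271-3207086) had folds of 8.40 and 10.5 at DAY6, 7.29 and 6.81 at DAY9, and 8.98 and 7.14 in ESC. The region 2.7 kb upstream (chr7:3217515-3217973), 811 bases before the start of D7Ertd143e, was weaker, at 2.91 and 4.21, then 4.67 and 3.58, then 4.96 and 2.96. A further region 16.2 kb upstream (chr7:3203801-3204414) had 2.77 in DAY6 replicate 1, 3.59 and 3.46 at DAY9, and 2.06 in ESC replicate 1. The 300-base promoter of D7Ertd143e itself overlapped no region. The region nearest to the microRNAs, 183 bases downstream of Mir295 inside Nlrp12 (chr7:3221024-3222699), was the only one of the window with a MEF peak. It had a fold of 7.02 in MEF replicate 1 and none in MEF replicate 2, 4.12 in DAY3 replicate 1 and none in DAY3 replicate 2, and 3.15 to 4.34 in all 6 later libraries.

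**Figure D3:**
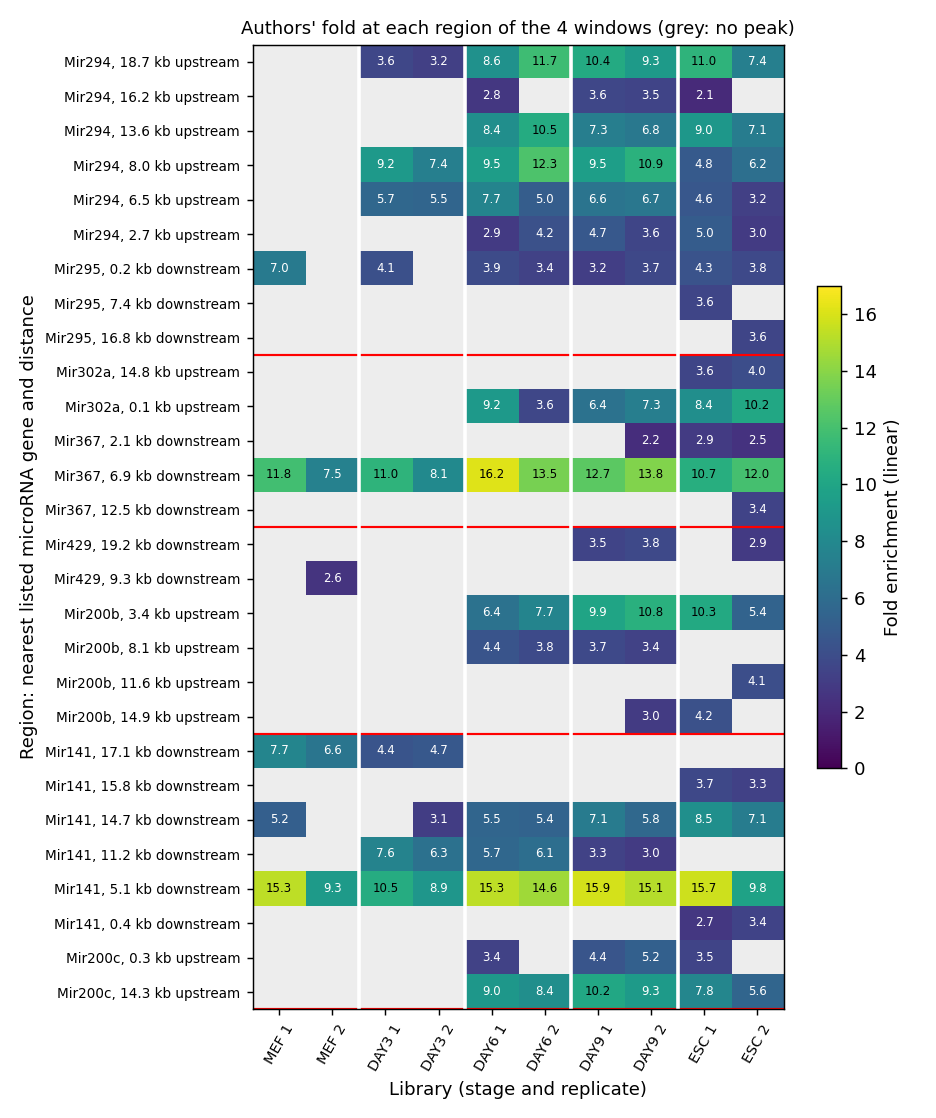
The authors' fold enrichment (colour and printed value) at each of the 28 regions (rows, named by the nearest listed microRNA gene and the distance) in each of the 10 libraries (columns), with grey where no peak was listed and red lines between clusters. The rows 8.0 and 6.5 kb upstream of Mir294 have values from DAY3 on, and the rows 6.9 kb downstream of Mir367 and 5.1 kb downstream of Mir141 have values in every library.

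At the Mir302/Mir367 cluster (chr3, Mir302a at chr3:127545496-127545564, Mir302d at chr3:127545624-127545689 and Mir367 at chr3:127545733-127545807, plus strand), peaks numbered 1 and 1 in MEF, 1 and 1 at DAY3, 2 and 2 at DAY6, 2 and 3 at DAY9, and 4 and 5 in ESC. The microRNA genes lie inside Gm51018 and inside the gene body of Larp7, which encodes a protein that binds small nuclear RNA. The ESC libraries were above all others, and MEF and DAY3 were the same. Means were 1 ± 0 in MEF (SD, n = 2), 1 at DAY3 (n = 1), 2 ± 0 at DAY6 (n = 2), 2.5 at DAY9 (n = 1) and 4.5 ± 0.707 in ESC (n = 2), and stage held 96.8% of the sum of squares. The exact permutation test gave p = 0.00714, adjusted to 0.0286 over the 4 clusters and to 0.268 over the 1152 windows. The call over the 4 clusters ended in lists of equal length, where the ESC minus MEF difference was 1.0 in place of 3.5 (adjusted exact permutation p = 0.429), and without any one MEF, DAY6, DAY9 or ESC library (difference 3.0 to 4.0, highest adjusted p 0.171).

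The single peak of MEF and DAY3 was not at the microRNAs. It lay 6.9 kb downstream of Mir367 over the neighbouring starts of Larp7 and Zgrf1 (chr3:127552672-127553863), and all 10 libraries had it, with folds of 11.8 and 7.48 in MEF, 11.0 and 8.07 at DAY3, 16.2 and 13.5 at DAY6, 12.7 and 13.8 at DAY9, and 10.7 and 12.0 in ESC. MEF and ESC overlapped. Of all regions, 7.35% had a peak in all 10 libraries.

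The region at the microRNAs ended 112 bases upstream of Mir302a (chr3:127544567-127545384) and covered the whole Gm51018 promoter printed above. It had no peak in MEF or DAY3, folds of 9.21 and 3.61 at DAY6, 6.38 and 7.29 at DAY9, and 8.40 and 10.2 in ESC. The 2 DAY6 libraries lay far apart, and replicate 2 was below all later libraries. In DAY6 replicate 2 the peak stood at percentile 5.0 of its list by score, against 72.2 in DAY6 replicate 1, and in lists of equal length it was first present in both libraries at DAY9. For both remaining gained regions, ESC was the sole stage with a peak in both libraries. The region 14.8 kb upstream of Mir302a (chr3:127530145-127530680) had folds of 3.57 and 4.03 in ESC and no other peak. The region 2.1 kb downstream of Mir367 (chr3:127547917-127548256) had 2.93 and 2.49 in ESC and 2.20 in DAY9 replicate 2. Neither weak ESC region was in both libraries of a stage in lists of equal length.

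At the Mir200a/Mir200b/Mir429 cluster (chr4, minus strand, Mir200b at chr4:156055681-156055750, Mir200a at chr4:156054896-156054985 and Mir429 at chr4:156053905-156053987), peaks numbered 0 and 1 in MEF, 0 and 0 at DAY3, 2 and 2 at DAY6, 3 and 4 at DAY9, and 2 and 3 in ESC. No MEF or DAY3 library reached the level of any later one, and the highest count was in DAY9 replicate 2, with ESC overlapping both DAY6 and DAY9. Means were 0.5 ± 0.707 in MEF (SD, n = 2), 0 at DAY3 (n = 1), 2 ± 0 at DAY6 (n = 2), 3.5 at DAY9 (n = 1) and 2.5 ± 0.707 in ESC (n = 2). Stage held 91.3% of the sum of squares, with an exact permutation p = 0.0786, and 0.0786 after adjustment over the 4 clusters and 0.408 over the 1152 windows. In lists of equal length the counts were 0 in all MEF and DAY3 libraries, 2 and 2 at DAY6, 3 and 3 at DAY9, and 1 and 1 in ESC, with an adjusted exact permutation p = 0.0286 over the 4 clusters.

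The region nearest to these microRNAs lay 3.4 kb upstream of Mir200b (chr4:156059138-156060297) over the start of Gm13648, and it contains both CAGGTG matches printed above. It had no peak in MEF or DAY3. Its folds were 6.39 and 7.65 at DAY6, 9.91 and 10.8 at DAY9, and 10.3 and 5.42 in ESC. The ESC pair spanned the DAY6 pair, and by rank the score was at percentile 69.3 and 72.5 at DAY6, 93.0 and 95.0 at DAY9, and 88.6 and 69.0 in ESC. It was the only region of the cluster gained in ESC against MEF.

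The region 8.1 kb upstream of Mir200b (chr4:156063896-156064658), over the start of Gm52714, was transient. Its folds were 4.40 and 3.83 at DAY6 and 3.74 and 3.35 at DAY9, with no peak in MEF, DAY3 or ESC. Both stages that have it are the sorted ones. A region 19.2 kb downstream of Mir429 (chr4:156034194-156034674) had folds of 3.49 and 3.76 at DAY9 and 2.91 in ESC replicate 2. The other 3 regions of this window were in both libraries of no stage, among them the sole MEF peak of the window, 9.3 kb downstream of Mir429, with a fold of 2.57 in MEF replicate 2.

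At the Mir200c/Mir141 cluster (chr6, minus strand, Mir200c at chr6:124718322-124718390 and Mir141 at chr6:124717914-124717985), peaks numbered 3 and 2 in MEF, 3 and 4 at DAY3, 5 and 4 at DAY6, 6 and 5 at DAY9, and 6 and 5 in ESC. Neighbouring stages overlapped, and MEF and ESC did not. Means were 2.5 ± 0.707 in MEF (SD, n = 2), 3.5 at DAY3 (n = 1), 4.5 ± 0.707 at DAY6 (n = 2), 5.5 at DAY9 (n = 1) and 5.5 ± 0.707 in ESC (n = 2). Stage held 88.5% of the sum of squares, with an exact permutation p = 0.0762, and 0.0786 after adjustment over the 4 clusters and 0.408 over the 1152 windows. In lists of equal length the ESC minus MEF difference was 1.0 in place of 3.

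Most regions of this window overlapped neighbouring genes, and which gene a region acts on was not tested. The region 5.1 kb downstream of Mir141 (chr6:124711731-124712790), over the starts of Emg1, a ribosome assembly factor, and Phb2, a mitochondrial prohibitin, had a peak in all 10 libraries, with folds from 8.94 to 15.9. The region nearest to the microRNAs, 276 bases upstream of Mir200c (chr6:124718666-124719748), had no peak in MEF or DAY3, 3.37 in DAY6 replicate 1, 4.45 and 5.22 at DAY9, and 3.46 in ESC replicate 1. It was thus in both libraries of DAY9 alone. On the other side of the pair, 417 bases downstream of Mir141 (chr6:124716794-124717497) over the end of Phb2, a weak region had folds of 2.73 and 3.39 in ESC and no other peak. In lists of equal length this weak region was in both libraries of no stage.

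The most strongly enriched gained region of the window lay 14.3 kb upstream of Mir200c inside Ptpn6, the gene of a tyrosine phosphatase (chr6:124732664-124733464). Its folds were 8.98 and 8.42 at DAY6, 10.2 and 9.26 at DAY9, and 7.81 and 5.57 in ESC, with no peak in MEF or DAY3. Both ESC values were below all 4 values of the sorted stages. The cluster also held the only lost region, 17.1 kb downstream of Mir141 at Lpcat3 (chr6:124700164-124700799), an acyltransferase of phospholipids, with folds of 7.73 and 6.58 in MEF and 4.42 and 4.65 at DAY3 and no later peak.

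The second transient region lay 11.2 kb downstream of Mir141 inside Emg1 (chr6:124706030-124706666). Its folds were 7.58 and 6.32 at DAY3, 5.71 and 6.14 at DAY6, and 3.33 and 2.97 at DAY9, with no peak in MEF or ESC. These 3 stages did not overlap, with DAY3 highest and DAY9 lowest. A gained region 15.8 kb downstream of Mir141 (chr6:124701211-124702121), in both libraries of no stage in lists of equal length, had 3.68 and 3.30 in ESC. Next to it, the region 14.7 kb downstream (chr6:124702601-124703188) had 5.17 in MEF replicate 1, 3.12 in DAY3 replicate 2, 5.51 and 5.40 at DAY6, 7.06 and 5.76 at DAY9, and 8.45 and 7.13 in ESC.

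**Figure D4:**
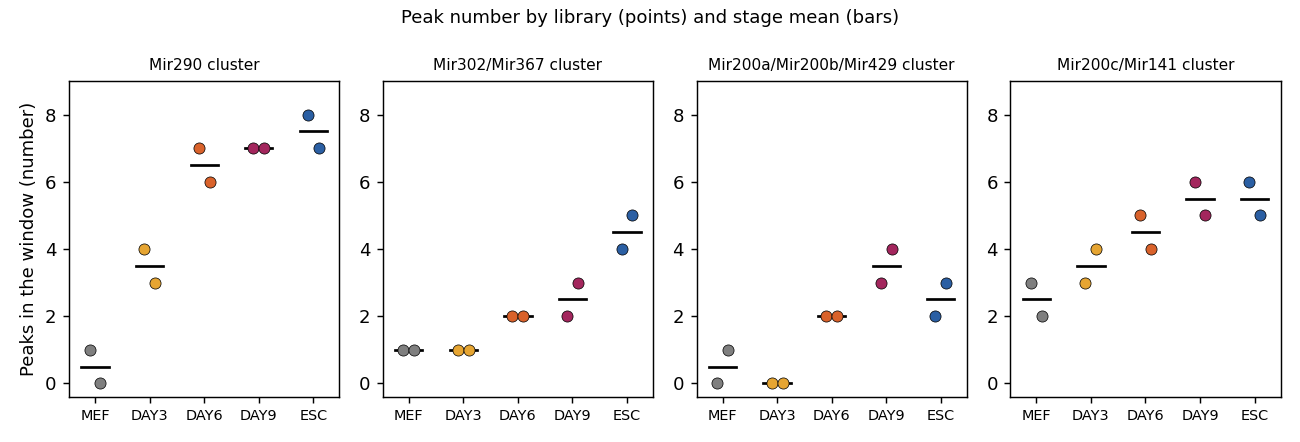
Number of peaks (y axis) in the window of each cluster in each library (points) with the mean of the stage (bars), by stage (x axis). The Mir290 window goes from 1 and 0 peaks in MEF to 8 and 7 in ESC, and the Mir200a/Mir200b/Mir429 window is highest at DAY9, with 3 and 4.

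Against other microRNA genes, the 4 clusters were on the high side of the ESC minus MEF difference in peak number. Of 1228 microRNA genes, 1152 had a peak within 20 kb in at least 1 library, and their median difference was 0.5, while the median of the 10 listed genes was 3.25 and all 10 had more peaks in ESC. With a median of 0.5, more peaks in ESC was common over all these windows too, though the share of windows with more was not counted. The 10 genes lie in 4 clusters and share peaks within each, so they are not 10 independent counts. A difference of at least 2, that of the lowest of the 4 clusters, was present at 213 windows (18.5%). At least 7, that of the Mir290 cluster, was present at 17 (1.48%). Of these 17, 9 are the 9 microRNA genes of the Mir290 locus itself. Their windows share most of their peaks, with differences of 7 (as at Mir294) or 8 (as at Mir290a). Peak number differed between stages at an unadjusted exact permutation p under 0.05 at 12.4% of the 1152 windows, and 101 windows (8.77%) also had more peaks in ESC than MEF. The Mir290 and Mir302/Mir367 genes are among those 101. None of the 1152 had an adjusted p under 0.05, and the lowest adjusted p, 0.268, was shared by 92 windows.

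**Figure D5:**
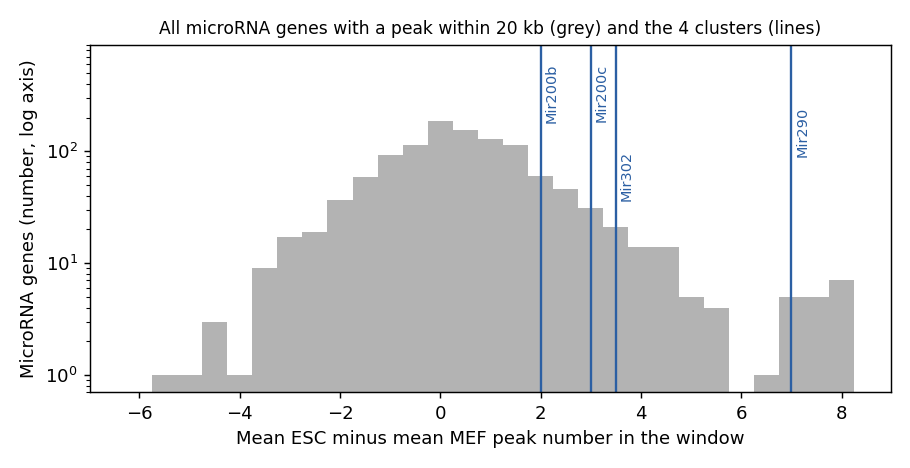
Distribution of the ESC minus MEF difference in mean peak number (x axis) over the 1152 microRNA genes with a peak within 20 kb (grey bars, y axis on a log scale), with blue lines at the 4 clusters. The lines stand at 2, 3, 3.5 and 7, to the right of the median of 0.5.

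Related genes were scored as the markers were, and 23 of them in 3 lists had 4 gained in ESC against MEF, none lost, and 14 with a peak in both libraries of both stages. Of the 15 scored at their start, 1 was gained, beside 6.16% of 27025 gene starts gained and 2.82% lost. Of the 8 scored at either gene end, 3 were gained, beside 7.23% of 21593 such genes gained and 3.25% lost. Of 8 genes of microRNA processing, Drosha, Dgcr8, Dicer1, Xpo5 and Ago2 (the last at either end) had peaks in all 10 libraries. Lin28a, which encodes an RNA-binding protein that blocks let-7 maturation, was the one gained at its start, with folds of 3.49 and 3.03 at DAY3, 3.37 and 3.61 at DAY6, 4.17 and 4.12 at DAY9, and 5.80 and 4.72 in ESC. Lin28b and Trim71 had peaks in both ESC libraries and in MEF replicate 1, so they met neither rule.

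The 9 genes of the epithelial and mesenchymal states first had peaks at different stages. Cdh1, the gene of E-cadherin and a target of Zeb repression, was gained, with no peak in MEF or DAY3 at either gene end and folds of 6.98 and 7.90 at DAY6, 11.6 and 10.6 at DAY9, and 8.09 and 6.53 in ESC. Esrp1, an epithelial splicing factor, was gained but already had peaks at DAY3, with 5.38 and 5.65 there, 5.97 and 5.26 at DAY6, 8.97 and 8.54 at DAY9, and 7.42 and 5.57 in ESC. Grhl2, an epithelial transcription factor, was gained with 3.57 in DAY3 replicate 1, 5.12 and 6.87 at DAY6, 7.98 and 9.29 at DAY9, and 6.53 and 3.24 in ESC. Of these 3, Cdh1 alone had DAY6 as the first stage with any peak, as the Gm13648 start did, and in all 3 both DAY9 values were above both DAY6 values.

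Epcam, an epithelial adhesion molecule scored at its start, met neither rule, with 3.62 in MEF replicate 1, 3.65 in DAY3 replicate 1, 5.96 and 6.72 at DAY6, 7.15 and 7.60 at DAY9, and 6.69 and 7.90 in ESC. Ovol1, a repressor of mesenchymal genes, had peaks at DAY6 (3.37 and 5.11) and DAY9 (9.08 and 9.84) and in no other library. A second list of 5 epithelial markers held Cdh1, Epcam, Krt8, Krt18 and Cldn6, and 2 of them, Cdh1 and Krt18, were gained. Of the 4 scored at their start, 1 was gained, beside 6.16% of 27025 gene starts. Cldn6 had peaks in all 10 libraries, with folds of 3.82 and 2.63 in MEF. Krt8 had 3.85 in MEF replicate 1 and 5.80 and 5.77 at DAY3, so it met neither rule. The repressor genes Zeb2, Snai1 and Snai2 had peaks in all 10 libraries, and Zeb1 lacked one in MEF replicate 2 only. All 6 genes listed as targets of the Mir290 and Mir302 families also had peaks in all 10 libraries. Cdkn1a, Lats2, Rbl2, Tgfbr2 and Rhoc were scored at their starts and Mbd2 at either gene end. The share of all genes with such peaks was not counted. Counts of related genes with peaks in all libraries, or in both MEF and ESC pairs, are therefore description only.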

How the data were processed

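Peak lists from ATAC-seq of 10 libraries were used, 2 per stage. The authors deposited 1 list per library, not per pooled stage, with a score, a linear fold enrichment, a −log10 p-value and a −log10 q-value for each peak, all of them the authors' own. Bowtie2 2.3.2, MACS2 2.1.1, deepTools 2.3.6 and the build mm10 are named in the submitters' processing notes, with no role given. Treatment of duplicates and of the transposase offset is not given in the sources used here. The lowest deposited −log10 p-value was about 5, and gaps in the peak numbers (58.2% to 75.9% present) show that peaks were removed after calling by a rule not given. Depth is not in the lists, so a background pileup was recovered from the deposited fold and −log10 p-value.

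Windows reached 20 kb beyond each gene, and a peak counted with 1 base of overlap. Peaks of the 10 lists were merged into 208851 regions. Peak number was compared over 8 samples by an exact permutation test of the between-stage share of the sum of squares (larger shares count, so any direction), with Benjamini-Hochberg adjustment. All regions that overlap or lie nearest to a listed microRNA or its host's start, and up to 5 regions per cluster that differ by stage in order of distance, were named. The regions 18.7 kb upstream of Mir294, 6.9 kb downstream of Mir367, 9.3 kb downstream of Mir429, and 5.1, 14.7 and 17.1 kb downstream of Mir141 fall outside that rule and were picked after their values were seen. Members, gene lists, tests and alternatives were chosen with earlier results of these data known. Alternatives were other windows, equal-number and top 50% lists, covered bases, peak midpoints (the lists hold no summit), single libraries left out and a replicate block. Exon or intron position was not analysed here, and no genome sequence was used beyond RefSeq tables. Scripts used Python 3.11.15, numpy 2.4.6, pandas 2.3.3, scipy 1.17.1 and matplotlib 3.10.9, and were tested on simulated data.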

Additional observations from a re-analysis of the deposited data

How the results depend on the processing

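Values here are the ESC minus MEF difference in peak number with the exact permutation p adjusted over the 4 clusters. Windows of 10 kb gave 4 for Mir290 (0.0714), 2 for Mir302 (0.0286, the call kept), 0.5 for Mir200b (0.171) and 1.5 for Mir200c (0.286). Windows of 50 kb gave 5 for Mir302, 5.5 for Mir200c (0.395), 12.5 for Mir290 and 2.5 for Mir200b (both adjusted exact permutation p = 0.0159, now under 0.05). Lists of equal length gave 5.5 for Mir290 and 1 for Mir200b (both 0.0286) and 1 for Mir302, which lost its call (0.429). The top 50% of each list gave 5.5 for Mir290 (0.019) and 1 for Mir200b (0.0429), both under 0.05, 0.5 for Mir200c (0.171), and 1 for Mir302, again not called (0.429). Covered base pairs gave 5241 for Mir290, 1419 for Mir200b and 1703 for Mir200c, all now under 0.05 (0.0381, 0.0452 and 0.0381). Counting all 10 libraries separately gave the same differences, 7 for Mir290 and 2 for Mir200b, now at 0.0254. With the replicate block, they were again 7 and 2 at 0.0444, but the replicate numbers share nothing beyond a number: correlations of deviations ran from -0.0095 to 0.0221 over 10 stage pairs. Leaving out 1 library gave 3 to 4 for Mir302, and the call held only without a DAY3 library. The same step gave 6.5 to 7.5 for Mir290, 1.5 to 2.5 for Mir200b and 2.5 to 3.5 for Mir200c, none called. Without a MEF, DAY6 or ESC library the test had 105 arrangements in place of 420, so a call lost there does not show that the result depends on that library. Regions gained numbered 7 with windows of 10 kb, 21 with 50 kb and 22 with the replicate block, and 12 to 16 without 1 library. They numbered 8 with lists of equal length and 8 with the top 50%, in place of 12. Regions lost numbered 0 with 10 kb, 2 with 50 kb and 2 with the block, and 1 to 2 without 1 library, 2 without MEF replicate 1. Transient regions numbered 1 with 10 kb, 5 with lists of equal length or the top 50%, 6 with the block, and 2 to 4 without 1 library, 4 without ESC replicate 1. No direction reversed in any setting run. The cause of these changes was not tested. Depth is unknown beyond the recovered pileup, so a region without a peak may lie under the calling threshold.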

Other observations

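Other microRNA genes of known roles in fibroblasts and in growth were counted in the same 20 kb windows. Of 12 such genes, 6 had more peaks in ESC than in MEF and 5 had fewer. The share of the 1152 microRNA windows in each direction was not counted, and their median difference was 0.5. Mir17 and Mir20a had the same counts, as did Mir106b, Mir93 and Mir25, so the 12 are not independent. Mir21a, a microRNA abundant in fibroblasts, had 8 and 9 peaks in MEF, 4 and 4 at DAY3, 3 and 3 at DAY6, 2 and 2 at DAY9, and 4 and 3 in ESC. MEF did not overlap any other stage, and the unadjusted exact permutation p was 0.0429, which became 0.348 when adjusted over the 1152 microRNA windows. Mir214, which is expressed in mesenchyme, had 6 and 4 peaks in MEF and 2 and 2 in ESC, and the intermediate libraries held 3 or 4 (unadjusted exact permutation p = 0.171). The genes Mir106b, Mir93 and Mir25, a cluster related to the proliferation-linked Mir17 cluster, had 4 and 4 peaks in MEF and 6 and 5 in ESC (unadjusted exact permutation p = 0.107). Mir17 and Mir20a had 2 and 2 in MEF and 3 and 4 in ESC (p = 0.429 by the same exact permutation test).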
